A study of Mus musculus with 23 samples.

Results

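Carriers that move organic ions, nucleosides and vitamins across cell membranes were described in mouse intestinal epithelium that had lost Eed, in wild-type villus, and in intestinal stem cells. The members were all genes named in both deposited tables whose symbol belongs to the solute carrier families Slc19, Slc22, Slc23, Slc28, Slc29, Slc46, Slc47 and Slc52 or to the Slco family. By that rule, which uses symbols and no measured value, they number 60 of 22517 named genes, in 9 families. The rule was set with earlier results of these data known.

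Vitamins, nucleosides and charged organic molecules cross membranes too poorly to rely on diffusion, so enterocytes carry dedicated proteins for them. Folate enters on a proton-coupled carrier, thiamine and riboflavin on facilitative carriers, and ascorbate and nucleosides largely with sodium on the luminal side. Drugs, carnitine and other organic ions use the wide Slc22, Slc47 and Slco families. Dividing crypt cells make nucleotides by synthesis and by salvage, and the equilibrative Slc29 carriers serve salvage in many cell types. Eed belongs to the core of Polycomb repressive complex 2, which places the repressive histone mark H3K27me3 and in mammals is found mostly at promoters rich in CpG dinucleotides.

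RNA came from adult mice of mixed B6;129 background, with 3 libraries in each of 3 groups. Eed-null villus came from EedF/F; Villin-CRE mice, in which the Villin promoter drives a tamoxifen-inducible Cre recombinase in epithelial cells, and wild-type villus from EedF/F mice lacking Cre. ISC, the stem cells, were sorted for high Lgr5-GFP from Eed+/+ mice with the Lgr5-EGFP-IRES-CREERT2 allele. Mice of all 3 groups, controls included, had been given 1 to 2 mg of tamoxifen on 5 days. The labels place the villus and ISC preparations in the proximal intestine. Villus epithelium was frozen after EDTA release, whereas ISC were also digested with enzyme and sorted, so cell type and handling cannot be told apart in the comparison of villus with ISC.

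Each of the authors' deposited tables gives 1 RPKM value per group and gene, that is, reads scaled by gene length and by the number mapped, with a p and a q from their test. RPKM values below are the authors' group values, no spread over the 3 libraries can be given, and depth per library is unknown. A gene was called where its test had status OK and the q was at or below 0.05. The 2 tables were normalized separately, wild-type villus being listed 1.16193 times higher in the comparison with ISC, so each pair of values comes from 1 table. Both comparisons use the same wild-type villus libraries. Eed itself had 3.00 RPKM in Eed-null villus, against 9.17 RPKM in wild-type villus, 3.05-fold lower (q = 6.29e-06 in the authors' deposited table). In whole epithelium, fewer cells of a type and less RNA per cell cannot be told apart.

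Of the 60 carriers, 30 were tested in Eed-null against wild-type villus and 32 in wild-type villus against ISC, 30 of them in both. Eed-null villus had 5 carriers called higher, 16.7% of those tested, beside 7.90% of all 12525 tested genes. It had 4 called lower, 13.3% of those tested, beside 3.46% of all tested genes. Together 9 carriers, 30.0%, were called, beside 11.4% of all tested genes. Their median log2 ratio was 0.18, beside -0.08 over all tested genes. Higher calls went to the thiamine transporter genes Slc19a2 and Slc19a3, the purine nucleoside carrier gene Slc28a2, and Slc22a15 and Slc22a17. Among the lower calls were the ascorbate carrier gene Slc23a1, Slc22a13 and Slco2b1.

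Wild-type villus had 18 carriers called higher than ISC, 56.2% of those tested, beside 30.5% of all 13007 tested genes. It had 7 called lower, 21.9%, beside 32.3% of all tested genes. In total 25 carriers, 78.1%, were called, beside 62.8% of all tested genes, and their median log2 ratio was 1.39, beside -0.10. Summed over all 60 carriers, the level was 861 RPKM in wild-type villus and 169 RPKM in ISC. In the other table the sum was 813 RPKM in Eed-null villus and 741 RPKM in wild-type villus. Slc46a1, not called, held 290.4 RPKM of the first and 187 RPKM of the second, a wider gap than that between the sums. Every tested gene reached 0.351 RPKM in the higher group of the Eed-null comparison and 0.246 RPKM in that of the other. A tested carrier can therefore sit below that level in 1 group only: Slc22a17 and Slc29a2 did so in the Eed-null comparison, and Slc19a3, Slc22a13, Slc22a17 and Slc22a3 in the other.

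**Figure D1:**
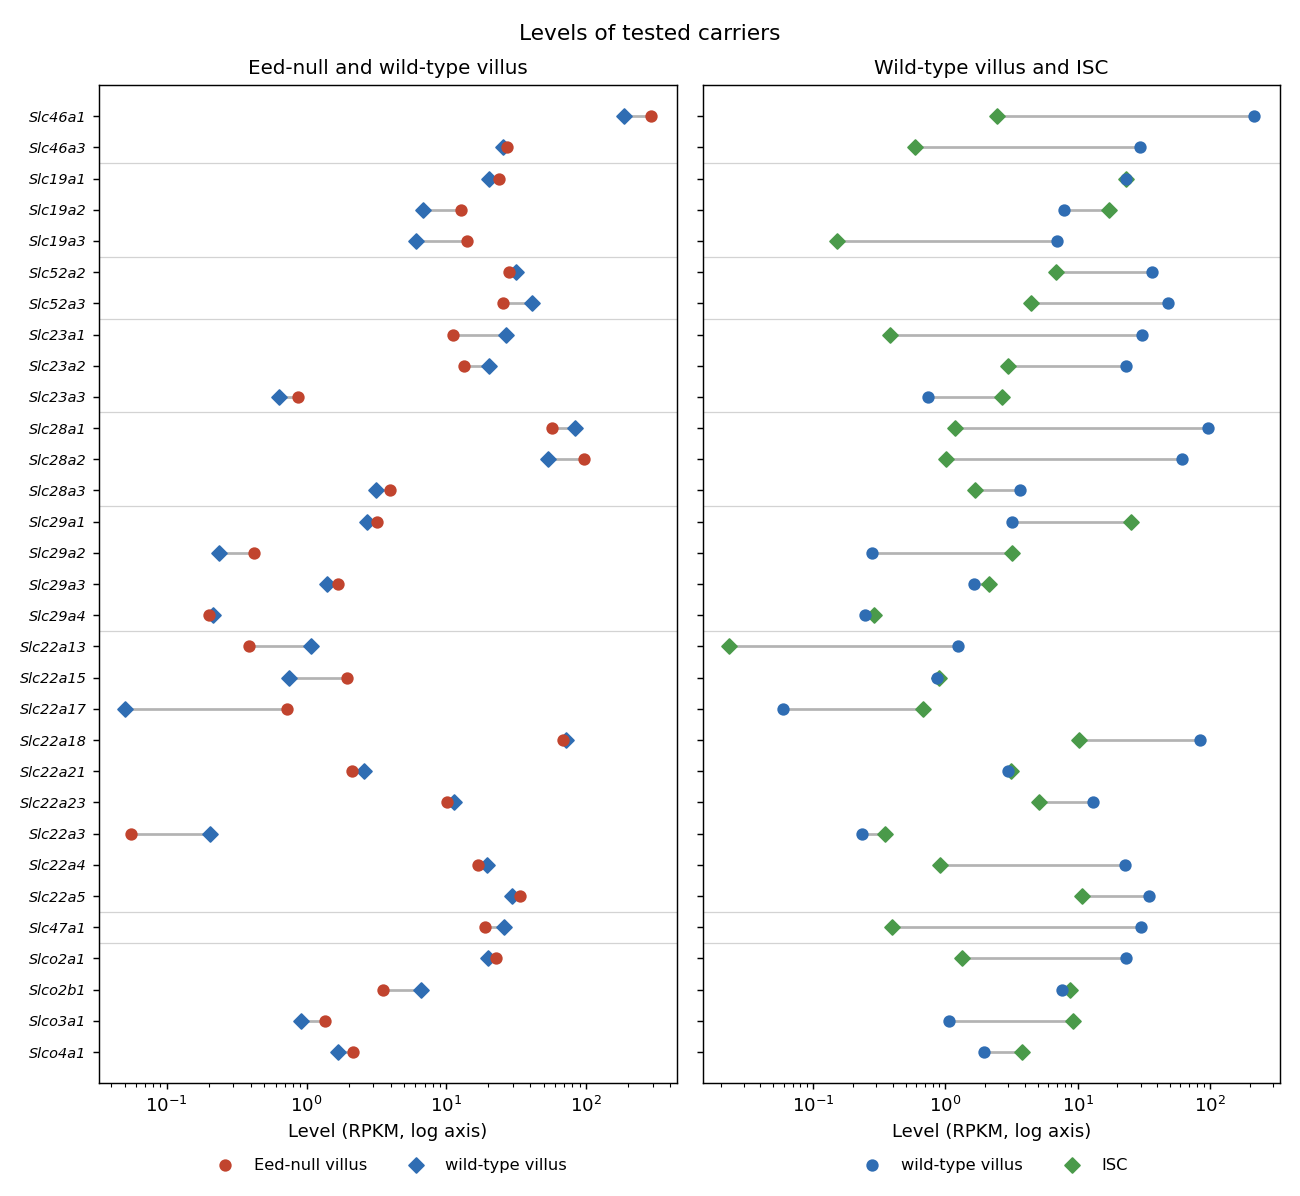
RPKM of tested carriers (log axis), by family, in Eed-null and wild-type villus (left) and in wild-type villus and ISC (right). Circles are the group named first and diamonds the group named second; Slc46a1 stands highest in all villus values, at 290.4 RPKM in Eed-null villus, 187 and 217 RPKM in wild-type villus, against 2.48 RPKM in ISC.

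The folate carrier gene Slc46a1 had the highest level of all carriers in both villus groups. The gene (chr11:78279202-78285447, mm9) encodes the proton-coupled folate transporter that takes up dietary folate. It had 290.4 RPKM in Eed-null villus, against 187 RPKM in wild-type villus, a ratio of 1.55 that did not pass the test (q = 0.0804 in the authors' deposited table). Among all named genes it ranked 285 by RPKM in Eed-null villus and 451 in wild-type villus. Against ISC it was called, with 217 RPKM in wild-type villus and 2.48 RPKM in ISC, 87.7-fold higher in villus. Slc19a1, the reduced folate carrier used by many cell types, had 23.9 RPKM in Eed-null villus and 20.2 RPKM in wild-type villus (q = 0.643 in the authors' deposited table). Its level was 23.4 RPKM in wild-type villus and 23.4 RPKM in ISC (q = 0.991 in the authors' deposited table). Of the RPKM summed over the folate pair, Slc46a1 held 92.4% in Eed-null villus, 90.3% in wild-type villus and 9.58% in ISC, a description with no test. The lysosomal carrier gene Slc46a3 had 27.2 RPKM in Eed-null villus and 25.4 RPKM in wild-type villus, not called. It had 29.5 RPKM in wild-type villus and 0.590 RPKM in ISC, 50.0-fold higher in villus and called.

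The thiamine transporter genes Slc19a2 and Slc19a3 both rose in Eed-null villus, and they took opposite directions between villus and ISC. Slc19a2 (chr1:166179185-166195499, mm9) encodes the widely expressed thiamine transporter 1. It had 12.8 RPKM in Eed-null villus, against 6.80 RPKM in wild-type villus, a log2 ratio of 0.91 (q = 0.00346 in the authors' deposited table). It had 7.90 RPKM in wild-type villus and 17.3 RPKM in ISC, so the level was 2.19-fold higher in ISC (q = 7.47e-06 in the authors' deposited table). Slc19a3 (chr1:83009097-83035023, mm9) encodes thiamine transporter 2, found on the luminal membrane. Its level was 14.0 RPKM in Eed-null villus, against 6.06 RPKM in wild-type villus, a log2 ratio of 1.21 (q = 5.15e-05 in the authors' deposited table). It had 7.04 RPKM in wild-type villus and 0.152 RPKM in ISC, 46.2-fold higher in villus and called. Slc19a3 made up 52.4% of the RPKM of the pair in Eed-null villus, 47.1% in wild-type villus and 0.874% in ISC.

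The promoters of the pair are printed because both genes rose after loss of a Polycomb subunit, yet the sequences differ in CpG content. Each is the 250 bases before the annotated start, 5′ to 3′ on the gene's strand, from RefSeq (GRCm38.p6), with CpG dinucleotides in capitals. The Slc19a2 promoter (chr1:164248796-164249045, plus strand) holds 23 CpG, 0.79 of the number its base composition gives, and 73.2% G or C. The Slc19a3 promoter (chr1:83038449-83038698, minus strand) holds 8 CpG, a ratio of 0.46, and 52.8% G or C.
Slc19a2: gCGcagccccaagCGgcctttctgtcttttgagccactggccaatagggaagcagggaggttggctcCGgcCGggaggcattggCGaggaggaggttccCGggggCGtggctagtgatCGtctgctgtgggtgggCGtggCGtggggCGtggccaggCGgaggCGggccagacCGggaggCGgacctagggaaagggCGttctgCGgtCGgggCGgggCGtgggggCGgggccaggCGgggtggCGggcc
Slc19a3: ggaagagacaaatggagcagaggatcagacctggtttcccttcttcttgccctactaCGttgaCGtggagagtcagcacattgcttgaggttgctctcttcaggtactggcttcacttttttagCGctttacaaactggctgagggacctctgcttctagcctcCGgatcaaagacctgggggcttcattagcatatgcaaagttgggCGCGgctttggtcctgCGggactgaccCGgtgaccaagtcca

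Riboflavin carriers were not called in Eed-null villus. Slc52a2, a widely expressed riboflavin transporter gene, had 28.1 RPKM in Eed-null villus and 31.4 RPKM in wild-type villus (q = 0.800 in the authors' deposited table). Slc52a3, whose product takes up riboflavin from the gut lumen, had 25.4 RPKM in Eed-null villus and 41.4 RPKM in wild-type villus, a log2 ratio of -0.71 that did not pass (q = 0.0918 in the authors' deposited table). Both were called higher in wild-type villus than in ISC. Slc52a2 had 36.5 RPKM in wild-type villus and 6.93 RPKM in ISC, 5.27-fold higher in villus. For Slc52a3 the values were 48.1 RPKM in wild-type villus and 4.44 RPKM in ISC, 10.8-fold higher in villus.

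Slc23a1, the sodium-coupled ascorbate carrier gene of absorptive epithelium, fell in Eed-null villus. It had 11.1 RPKM in Eed-null villus, against 26.6 RPKM in wild-type villus, 2.40-fold lower (q = 0.000761 in the authors' deposited table). In wild-type villus it had 30.9 RPKM and in ISC 0.383 RPKM, 80.5-fold higher in villus (q = 4.8e-06 in the authors' deposited table). The files list Slc23a1 in 1 locus entry with its neighbour Paip2, and the libraries do not mark strand. Paip2 had 27.9 RPKM in Eed-null villus and 28.4 RPKM in wild-type villus, and was called lower in wild-type villus, at 33.0 RPKM, than in ISC, at 59.1 RPKM. Slc23a2, the ascorbate carrier of most other tissues, had 13.3 RPKM in Eed-null villus and 20.1 RPKM in wild-type villus (q = 0.0748 in the authors' deposited table). It was called higher in wild-type villus, at 23.3 RPKM, than in ISC, at 2.99 RPKM. Slc23a3, with no settled substrate, had 0.866 RPKM in Eed-null villus and 0.640 RPKM in wild-type villus, not called. It was called lower in wild-type villus, at 0.744 RPKM, than in ISC, at 2.67 RPKM.

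Concentrative nucleoside carriers were higher in villus than in ISC and Slc29a1 and Slc29a2 lower, and within the concentrative family 1 gene rose in Eed-null villus. Slc28a2 (chr2:122252212-122286866, mm9), the purine-preferring sodium-coupled carrier gene, had 97.1 RPKM in Eed-null villus, against 53.2 RPKM in wild-type villus, 1.83-fold higher (q = 0.00388 in the authors' deposited table). Slc28a1 (chr7:88259684-88315302, mm9), the pyrimidine-preferring one, had 56.8 RPKM in Eed-null villus and 84.0 RPKM in wild-type villus, a log2 ratio of -0.56 that did not pass (q = 0.111 in the authors' deposited table). The ratio of Slc28a1 to Slc28a2 in RPKM was 0.585 in Eed-null villus, 1.58 in wild-type villus and 1.17 in ISC. Whether that ratio differed beyond the spread between libraries could not be tested. Slc28a3, which accepts both classes, had 3.99 RPKM in Eed-null villus and 3.14 RPKM in wild-type villus, not called.

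All 3 concentrative carriers were called higher in villus than in ISC. Slc28a1 had 97.5 RPKM in wild-type villus and 1.19 RPKM in ISC, 82.3-fold higher in villus. Slc28a2 had 61.8 RPKM in wild-type villus and 1.02 RPKM in ISC, 60.8-fold higher in villus, and Slc28a3 had 3.65 RPKM in wild-type villus and 1.68 RPKM in ISC. The equilibrative nucleoside carrier genes Slc29a1 and Slc29a2 went the other way. Slc29a1 had 3.17 RPKM in wild-type villus and 25.3 RPKM in ISC, 7.98-fold higher in ISC, where it was the highest of all carriers. Slc29a2 had 0.277 RPKM in wild-type villus and 3.21 RPKM in ISC, 11.6-fold higher in ISC (q = 5.94e-13 in the authors' deposited table). Summed, the Slc28 genes held 96.6% of nucleoside carrier RPKM in Eed-null villus, 96.8% in wild-type villus and 11.2% in ISC.

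Neither Slc29a1 nor Slc29a2 was called in Eed-null villus. Slc29a1 had 3.19 RPKM in Eed-null villus and 2.73 RPKM in wild-type villus, and Slc29a2 had 0.420 RPKM in Eed-null villus and 0.238 RPKM in wild-type villus. Slc29a3, an intracellular nucleoside carrier, was called in neither comparison, with 1.69 RPKM in Eed-null villus and 1.41 RPKM in wild-type villus, and with 1.64 RPKM in wild-type villus and 2.13 RPKM in ISC. The monoamine carrier gene Slc29a4 was too low to be tested in the Eed-null comparison, at 0.202 RPKM in Eed-null villus and 0.214 RPKM in wild-type villus, and was not called against ISC, at 0.249 RPKM in wild-type villus and 0.291 RPKM in ISC.

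The promoters of the 2 main concentrative carriers, printed because only the purine-preferring one was called in Eed-null villus, were both poor in CpG (same window, source and capitals as above). Slc28a1 (chr7:81114549-81114798, plus strand) holds 4 CpG, a ratio of 0.18. Slc28a2 (chr2:122426185-122426434, plus strand) holds 0 CpG, so nothing in it stands in capitals.
Slc28a1: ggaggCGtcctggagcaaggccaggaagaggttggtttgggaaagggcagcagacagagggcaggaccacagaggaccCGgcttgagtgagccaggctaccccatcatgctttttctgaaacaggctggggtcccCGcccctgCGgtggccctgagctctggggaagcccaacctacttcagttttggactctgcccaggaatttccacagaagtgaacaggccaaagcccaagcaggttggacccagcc
Slc28a2: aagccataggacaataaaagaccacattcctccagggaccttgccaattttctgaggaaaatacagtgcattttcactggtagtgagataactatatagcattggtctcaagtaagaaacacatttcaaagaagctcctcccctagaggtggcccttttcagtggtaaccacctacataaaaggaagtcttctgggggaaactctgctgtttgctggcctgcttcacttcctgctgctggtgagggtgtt

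**Figure D2:**
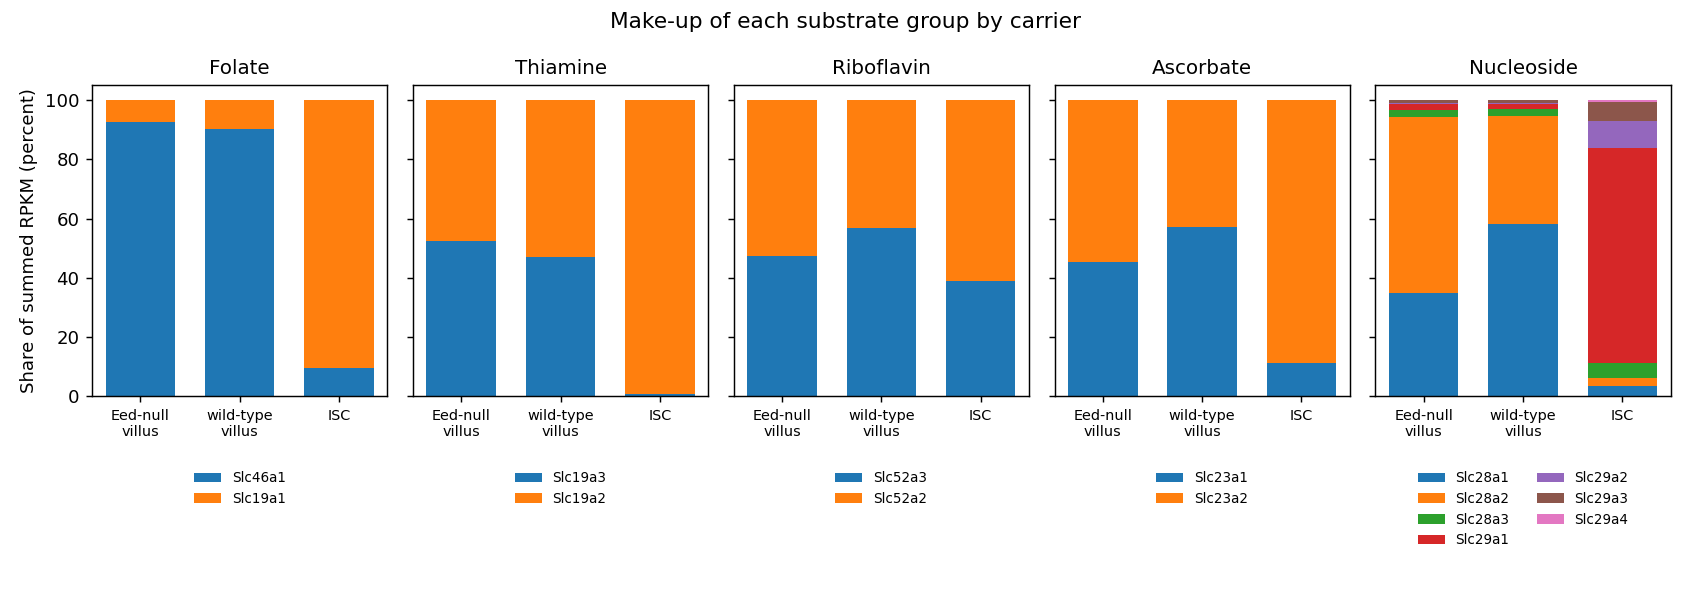
Share of summed RPKM held by each carrier within groups of carriers for 1 substrate class, in Eed-null villus, wild-type villus and ISC (bars start at 0 and end at 100%, no error can be given). Slc46a1 holds 92.4% and 90.3% of the folate pair in Eed-null and wild-type villus and 9.58% in ISC, and the Slc29 genes hold 88.8% of the nucleoside carriers in ISC.

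Slc22a4, Slc22a5 and Slc22a21 lie together in 164 kb of chromosome 11, and none was called in Eed-null villus. The ergothioneine carrier gene Slc22a4 had 16.9 RPKM in Eed-null villus and 19.5 RPKM in wild-type villus, and was called 24.7-fold higher in wild-type villus, at 22.7 RPKM, than in ISC, at 0.919 RPKM. The carnitine carrier gene Slc22a5 had 33.6 RPKM in Eed-null villus and 29.8 RPKM in wild-type villus, and was called 3.17-fold higher in wild-type villus, at 34.7 RPKM, than in ISC, at 10.9 RPKM. Its mouse paralogue Slc22a21, which could share reads with it, had 2.10 RPKM in Eed-null villus and 2.57 RPKM in wild-type villus, and 2.98 RPKM in wild-type villus against 3.13 RPKM in ISC, with no call. Slc47a1, which exports organic cations in exchange for protons, had 18.8 RPKM in Eed-null villus and 26.1 RPKM in wild-type villus (q = 0.207 in the authors' deposited table). It was called 77.2-fold higher in wild-type villus, at 30.3 RPKM, than in ISC, at 0.393 RPKM. Slc22a3, another organic cation carrier gene, had 0.0556 RPKM in Eed-null villus and 0.203 RPKM in wild-type villus, untested, and 0.236 RPKM in wild-type villus and 0.350 RPKM in ISC, not called.

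Slc22a17, Slc22a15 and Slc22a13 were called in Eed-null villus, all at low levels. Slc22a17, whose product has been described as a receptor for lipocalin-2, had 0.720 RPKM in Eed-null villus, against 0.0505 RPKM in wild-type villus, a log2 ratio of 3.83 (q = 0.000403 in the authors' deposited table). Its 14.3-fold ratio rests on a wild-type level below the 0.351 RPKM that each tested gene reached in its higher group. In the other table it had 0.0587 RPKM in wild-type villus and 0.680 RPKM in ISC, 11.6-fold higher in ISC (q = 0.000416 in the authors' deposited table). Slc22a15, a little characterised member, had 1.96 RPKM in Eed-null villus, against 0.744 RPKM in wild-type villus, 2.64-fold higher (q = 0.000282 in the authors' deposited table). It was not called between wild-type villus, at 0.865 RPKM, and ISC, at 0.894 RPKM.

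Slc22a13, known in humans as a carrier of nicotinate and urate, fell to 0.389 RPKM in Eed-null villus, against 1.08 RPKM in wild-type villus (q = 0.0250 in the authors' deposited table). It had 1.25 RPKM in wild-type villus and 0.0231 RPKM in ISC, and was called higher in villus. Its values are uncertain, since the neighbouring pseudogene Slc22a13b-ps, which may share reads, went the same way. The pseudogene had 1.37 RPKM in Eed-null villus and 3.49 RPKM in wild-type villus (q = 0.00996 in the authors' deposited table), and 4.05 RPKM in wild-type villus against 0.145 RPKM in ISC. Slc22a18, in an imprinted domain, had 68.7 RPKM in Eed-null villus and 72.3 RPKM in wild-type villus, not called. It was called 8.12-fold higher in wild-type villus, at 84.0 RPKM, than in ISC, at 10.3 RPKM. Slc22a23 had 10.2 RPKM in Eed-null villus and 11.3 RPKM in wild-type villus, not called, and was called 2.57-fold higher in wild-type villus, at 13.1 RPKM, than in ISC, at 5.10 RPKM.

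Slc22a15 and Slc22a17 had the highest log2 ratios of the tested carriers in Eed-null villus, and their promoters are printed for that reason, with the window, source and capitals as above. Slc22a15 (chr3:101924454-101924703, minus strand) holds 24 CpG, a ratio of 0.88, and 66.8% G or C. Slc22a17 (chr14:54913133-54913382, minus strand) holds 8 CpG, a ratio of 0.45, and 53.6% G or C.
Slc22a15: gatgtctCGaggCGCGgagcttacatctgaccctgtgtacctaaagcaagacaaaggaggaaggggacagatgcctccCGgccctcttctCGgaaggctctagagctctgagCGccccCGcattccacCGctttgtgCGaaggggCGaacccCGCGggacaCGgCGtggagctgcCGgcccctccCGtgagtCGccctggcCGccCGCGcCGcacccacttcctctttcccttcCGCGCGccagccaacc
Slc22a17: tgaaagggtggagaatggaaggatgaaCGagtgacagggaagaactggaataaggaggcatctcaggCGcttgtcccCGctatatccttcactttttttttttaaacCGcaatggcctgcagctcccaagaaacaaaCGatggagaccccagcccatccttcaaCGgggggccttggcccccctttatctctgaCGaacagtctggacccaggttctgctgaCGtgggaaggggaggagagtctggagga

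Of the 60 carriers, 51 matched 65 RefSeq promoter entries. With CpG-rich taken as an observed over expected ratio of at least 0.6 and at least 50% G or C in the 250 bases, 19 of the 65 entries and 31.0% of all 32851 promoters qualified. Among the 5 carriers called higher in Eed-null villus, Slc19a2 and Slc22a15 had such a promoter and Slc19a3, Slc28a2 and Slc22a17 did not. Motifs of intestinal transcription factors were searched on both strands as exact letters. AGATAA, for GATA factors, was in 9.99% of all promoters and 6 of the 65 entries, and TTTATG, for CDX factors, in 10.8% and 6. CAAAGTC, for HNF4, was in 3.84% and 3 entries, GTTAAT, for HNF1, in 6.43% and 5, and AGGTCA, a nuclear receptor motif, in 14.0% and 8. The Slc28a2 promoter holds AGATAA 165 bases before the start and, on the other strand, TTTATG 75 bases before it. The Slc22a17 promoter holds AGATAA on the other strand 66 bases before the start. AGATAA also stood in the promoters of Slc22a13, called lower in Eed-null villus, and of Slc22a18, not called there. TTTATG also stood in an entry of Slco2b1, called lower.

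The Slco genes, which carry organic anions such as prostaglandins, steroid sulfates and many drugs, gave 1 call in Eed-null villus. Slco2b1 (chr7:106806313-106859850, mm9), a carrier of steroid sulfates and drugs, fell to 3.50 RPKM in Eed-null villus, against 6.56 RPKM in wild-type villus, a log2 ratio of -0.91 (q = 0.00790 in the authors' deposited table). It was not called between wild-type villus, at 7.62 RPKM, and ISC, at 8.84 RPKM. The prostaglandin carrier gene Slco2a1 had 22.6 RPKM in Eed-null villus and 20.0 RPKM in wild-type villus, not called. It was called 17.4-fold higher in wild-type villus, at 23.2 RPKM, than in ISC, at 1.33 RPKM. Slco3a1 had 1.35 RPKM in Eed-null villus and 0.911 RPKM in wild-type villus, not called, and was called 8.80-fold higher in ISC, with 1.06 RPKM in wild-type villus and 9.31 RPKM in ISC. Slco4a1 had 2.15 RPKM in Eed-null villus and 1.69 RPKM in wild-type villus, not called, and was called 1.95-fold higher in ISC, with 1.96 RPKM in wild-type villus and 3.81 RPKM in ISC.

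**Figure D3:**
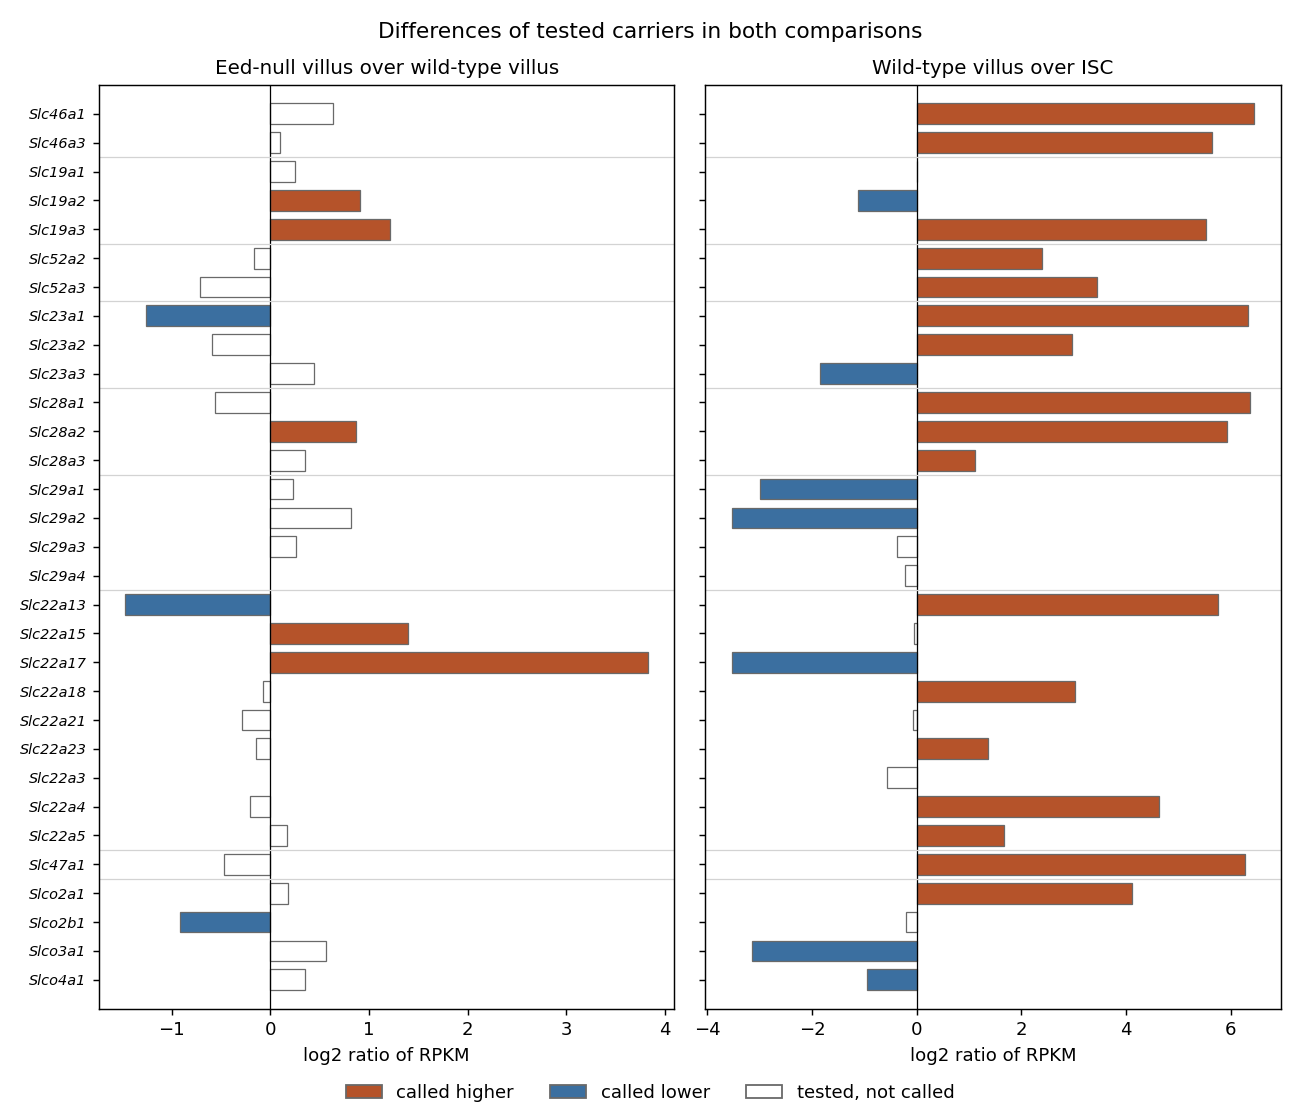
log2 ratio of the deposited RPKM for tested carriers, Eed-null villus over wild-type villus (left) and wild-type villus over ISC (right), coloured by the call. Carriers tested in 1 table only have no bar in the other; Slc22a17 has the longest bar on the left, at 3.83, and Slc19a1 has no visible bar on the right because its 2 values are 23.4 RPKM each.

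Ordered by level, the villus and ISC had different leading carriers. At 10 RPKM or more stood 18 carriers in Eed-null villus, 16 in wild-type villus in either table, and 6 in ISC. Among the 6 in ISC were Slc29a1, Slc19a1, Slc19a2, Slc22a5 and Slc22a18, from 25.3 RPKM down to 10.3 RPKM. In both villus groups the 4 carriers at 50 RPKM or more were Slc46a1, Slc28a1, Slc28a2 and Slc22a18. Without values per library, whether neighbours in these orders differ beyond their spread could not be tested.

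Tested in neither table were 28 carriers. They comprised 13 listed at 0 in every group and 15 above 0 somewhere, of which Slc47a2, an exporter paralogue of Slc47a1, was highest at 0.102 RPKM in wild-type villus. The 8 Slc22 genes in 955 kb of chromosome 19, among them the renal organic anion transporter genes Slc22a6 and Slc22a8, were all untested. The 6 Slco1 genes in 799 kb of chromosome 6 and the 3 Slco genes Slco4c1, Slco6b1 and Slco6c1 in 309.5 kb of chromosome 1 were untested as well. Also untested were Slc46a2, Slc22a2, Slc22a7, Slc22a12, Slc22a14, Slc22a16, Slc22a20, Slc22a22, Slco5a1 and Slco6d1. A listed 0 in these tables can be a failed estimate.

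Genes that use the carried vitamins were set beside the carriers. Folate handling, which includes one-carbon enzymes, had 1 of 14 tested genes called higher in Eed-null villus and 0 lower. The shares over all tested genes were 7.90% and 3.46%, and the median log2 ratio of the list was 0.13. The 1 gene was Ggh, the lysosomal enzyme that trims folate polyglutamates, with 21.5 RPKM in Eed-null villus and 5.21 RPKM in wild-type villus (q = 1.99e-09 in the authors' deposited table). Against ISC the same list had 3 of 14 called higher in wild-type villus and 11 lower, beside 30.5% and 32.3% of all tested genes. Its median log2 ratio was -2.48. The purine synthesis genes Gart and Atic were among the 11, Gart with 5.02 RPKM in wild-type villus and 38.5 RPKM in ISC, and Atic with 8.14 RPKM in wild-type villus and 57.7 RPKM in ISC. Aldh1l1, a cytosolic folate enzyme, was called higher in villus, with 65.7 RPKM in wild-type villus and 10.7 RPKM in ISC.

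Of 23 tested genes handling other vitamins, Eed-null villus had 0 called higher and 4 lower, beside 7.90% and 3.46% of all tested genes. The median log2 ratio of the 23 was -0.38. The 4 were Cubn and Amn, which form the receptor for vitamin B12 bound to intrinsic factor, the pyridoxal kinase gene Pdxk and the biotin and pantothenate carrier gene Slc5a6. Slc5a6 shares its locus entry with another gene. Cubn had 9.69 RPKM in Eed-null villus and 36.2 RPKM in wild-type villus, 3.73-fold lower (q = 2.67e-13 in the authors' deposited table). Against ISC, 13 of 24 were called higher in wild-type villus and 8 lower, beside 30.5% and 32.3% of all tested genes. Rfk, the riboflavin kinase gene, had 558 RPKM in wild-type villus and 33.5 RPKM in ISC.

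Of 22 tested genes of nucleoside metabolism and signalling, Eed-null villus had 4 called higher and 2 lower, with a median log2 ratio of -0.10. The shares over all tested genes were 7.90% and 3.46%. Nt5e, which makes adenosine outside the cell, had 167 RPKM in Eed-null villus and 60.5 RPKM in wild-type villus (q = 1.64e-07 in the authors' deposited table). Ada, which deaminates adenosine, had 1546 RPKM in Eed-null villus and 711 RPKM in wild-type villus (q = 0.00320 in the authors' deposited table). The adenosine receptor genes Adora1, at 0.778 RPKM in Eed-null villus and 0.0752 RPKM in wild-type villus, and Adora2a, at 1.59 RPKM in Eed-null villus and 0.417 RPKM in wild-type villus, were also called higher. Adora1 shares its locus entry with another gene. The adenosine kinase gene Adk, at 22.8 RPKM in Eed-null villus and 30.4 RPKM in wild-type villus, and the receptor gene Adora3, at 0.398 RPKM in Eed-null villus and 0.459 RPKM in wild-type villus, were not called. Adora2b, another adenosine receptor gene, fell to 7.93 RPKM in Eed-null villus, against 15.6 RPKM in wild-type villus, and so did the pyrimidine-degrading Dpyd, at 37.8 RPKM in Eed-null villus and 67.6 RPKM in wild-type villus. Against ISC, 12 of 22 were called higher in wild-type villus and 6 lower, Ada having 826 RPKM in wild-type villus and 6.40 RPKM in ISC, and the thymidine kinase gene Tk1 having 10.1 RPKM in wild-type villus and 47.3 RPKM in ISC.

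Among 9 tested ABC pumps that export drugs and conjugates, Eed-null villus had 3 called higher and 1 lower. The shares over all tested genes were 7.90% and 3.46%. Abcc5 rose, with 10.5 RPKM in Eed-null villus and 3.75 RPKM in wild-type villus. Abcc6 fell, with 0.594 RPKM in Eed-null villus and 2.71 RPKM in wild-type villus. Abcb1b, at 0.466 RPKM in Eed-null villus and 0.0278 RPKM in wild-type villus, rose as well. So did Abcc4, at 0.780 RPKM in Eed-null villus and 0.215 RPKM in wild-type villus. Both wild-type levels lay below the 0.351 RPKM that each tested gene reached in its higher group. Abcb1a, Abcc1, Abcc2, Abcc3 and Abcg2 were not called, Abcc2 having 201 RPKM in Eed-null villus and 147 RPKM in wild-type villus. Against ISC, 4 of 8 were called higher in wild-type villus and 2 lower, beside 30.5% and 32.3% of all tested genes. Bile acid and carnitine genes had 0 of 11 called higher and 4 lower with Eed lost, beside 7.90% and 3.46% of all tested genes. The bile acid genes Fabp6, Slc10a2 and Slc51a, which also stand in the ileal list below, were called lower. So was Bbox1, the last enzyme of carnitine synthesis, at 10.7 RPKM in Eed-null villus and 21.1 RPKM in wild-type villus. The carnitine genes Cpt1a, Cpt2, Crat, Crot and Slc25a20 were not called. In wild-type villus against ISC, 10 of the 11 bile acid and carnitine genes were called higher, beside 30.5% of all tested genes. Scaffold and regulator genes of carriers had 0 of 19 called higher and 3 lower with Eed lost, and 11 higher and 3 lower in wild-type villus against ISC. The shares over all tested genes are those given above for each comparison. The 3 lower in Eed-null villus were Pdzk1, a scaffold of luminal carriers, and the transcription factor genes Cdx2 and Ppara. Pdzk1 had 129 RPKM in Eed-null villus and 216 RPKM in wild-type villus (q = 0.0382 in the authors' deposited table). Like Slc23a1, it shares its locus entry with another gene.

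**Figure D4:**
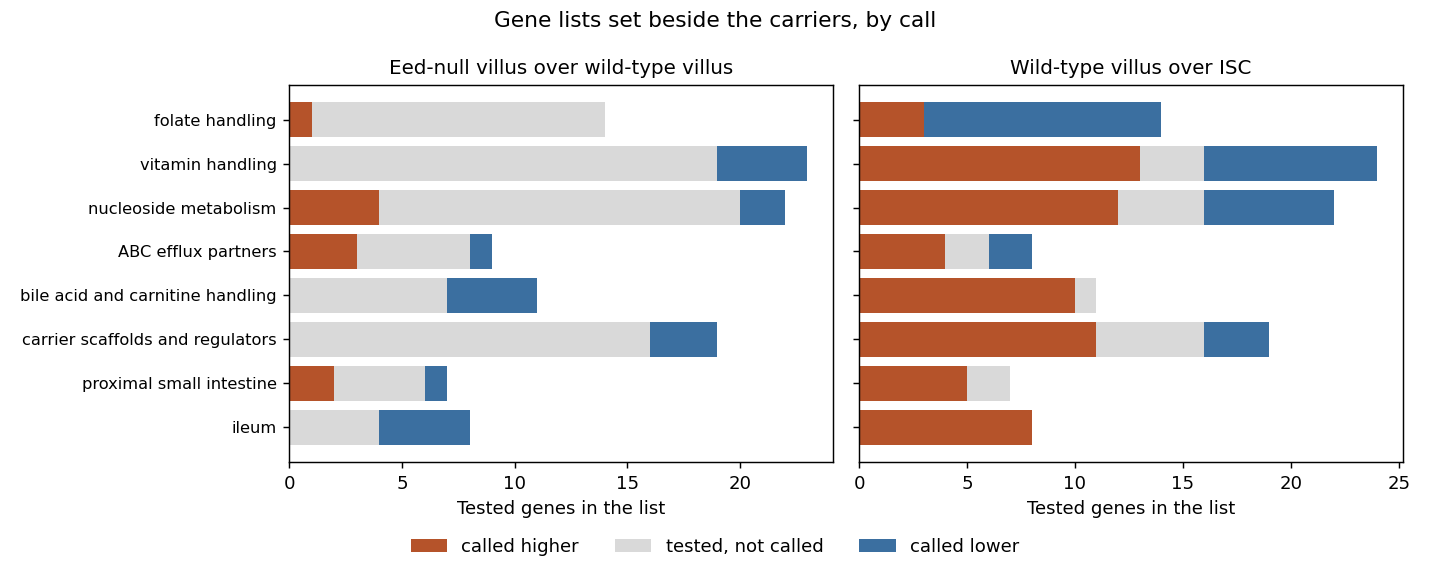
Number of tested genes in each list that were called higher, not called or called lower, for Eed-null villus over wild-type villus (left) and wild-type villus over ISC (right). Vitamin handling has 0 higher and 4 lower of 23 on the left, and folate handling has 3 higher and 11 lower of 14 on the right; the proximal list leaves out Slc46a1.

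With Eed lost, calls were counted over lists of markers of gut region and of cell type, without a test of any list. Lists can overlap, as Lct stands in both the proximal and the enterocyte list. The ileal list held 4 calls, and the proximal and goblet cell lists 3 each. The remaining cell-type lists held at most 2 each. Of all tested genes, 11.4% were called, 7.90% higher and 3.46% lower. Ileal genes had 0 of 8 called higher and 4 called lower with Eed lost, and they were not at 0 in tissue labelled proximal. The 4 were Fabp6, Slc10a2 and Slc51a, counted above with the bile acid genes, and Cubn, counted above with the vitamin genes. Fabp6, with the largest fall, had 251 RPKM in Eed-null villus and 1444 RPKM in wild-type villus. The other 4 were not called. Of these Slc51b was lower in value, whereas Fgf15, Pyy and Nts were higher, Nts having 48.5 RPKM in Eed-null villus and 36.3 RPKM in wild-type villus. Proximal genes other than Slc46a1 had 2 of 7 called higher and 1 lower, Cybrd1 having 16.7 RPKM in Eed-null villus and 6.64 RPKM in wild-type villus. Several carriers differ along the gut, and the part of gut region in the calls was not tested. Goblet cell markers had 3 of 7 called higher in Eed-null villus, their sum being 17426 RPKM in Eed-null villus and 11811 RPKM in wild-type villus. Enterocyte markers had 0 of 15 higher and 2 lower, with sums of 29455 RPKM in Eed-null villus and 39081 RPKM in wild-type villus. Much of the gap between these sums is Fabp2, which was not called, at 7122 RPKM in Eed-null villus and 13528 RPKM in wild-type villus. Leukocyte markers had 0 of 9 higher and 1 lower, and mesenchyme markers were all untested, summing to 0.862 RPKM in Eed-null villus and 0.365 RPKM in wild-type villus. Proliferation markers had 0 of 10 called higher and 1, Mki67, called lower, with a median log2 ratio of -0.54 and sums of 79.7 RPKM in Eed-null villus and 113 RPKM in wild-type villus. Stem cell markers had 0 of 9 higher and 1 lower, Olfm4, at 40.6 RPKM in Eed-null villus and 94.5 RPKM in wild-type villus. Paneth cell markers had 1 of 6 higher, Ang4, at 1852 RPKM in Eed-null villus and 903 RPKM in wild-type villus, and 0 lower. Enteroendocrine markers had 1 of 8 higher, Gip, and 1 lower, Gcg, and tuft cell markers had 0 of 6 called. The part of these cell types in the carriers' calls was not tested.

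Between wild-type villus and ISC, all 15 enterocyte markers were called higher and all 10 stem cell and all 10 proliferation markers lower in wild-type villus. Of all tested genes, 30.5% were called higher and 32.3% lower. Paneth cell markers, too, had 4 of 4 tested called lower in wild-type villus, Mmp7 having 56.3 RPKM in wild-type villus and 321 RPKM in ISC. Enteroendocrine markers had 2 of 8 higher and 4 lower, goblet markers 3 of 7 higher and 1 lower, and tuft markers 5 of 6 higher in wild-type villus. Leukocyte markers had 7 of 9 called higher in wild-type villus, between 2.20-fold and 5.85-fold. Their sums, 299 RPKM in wild-type villus and 262 RPKM in ISC, are mostly Cd74, which was not called, at 181 RPKM in wild-type villus and 235 RPKM in ISC. The part of these cell types in the carriers' differences was not tested. Xist, expressed from the inactive X chromosome of females, had 5.72 RPKM in wild-type villus and 39.5 RPKM in ISC, and the Y-linked gene Ddx3y had 6.84 RPKM in wild-type villus and is listed at 0 in ISC. Sex, like handling, therefore moves with that comparison and cannot be told apart from cell type. In Eed-null against wild-type villus neither Xist, at 3.47 RPKM in Eed-null villus and 4.92 RPKM in wild-type villus, nor Ddx3y was called.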

How the data were processed

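RNA was read as 75 bp single-end reads from TruSeq V2 libraries that do not mark strand, per the labels' protocols. Per the submitters' processing notes, build mm9, Bowtie, Cuffdiff, TopHat2 2.0.6 and Cufflinks 2.0.1 were used, with no roles stated; the gene models are not given in the sources used here.

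Both of the authors' deposited tables hold 1 RPKM value per group and gene. The file headers name the unit in the table with ISC; in the Eed-null table it was inferred, since wild-type villus values are those of the other table divided by 1.16193 (range 1.16192 to 1.16194, 10353 genes). The p-value and q-value are the authors', per the file headers, and each q equals a Benjamini-Hochberg adjustment over tested genes to within 8.02e-05. Some q are listed as 0 and are not printed.

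Folds are ratios of deposited RPKM with no pseudocount, computed with Python 3.11.15 and pandas 2.3.3. No model was refitted, because the tables give no value per library. The counting was tested on simulated data. Carriers tested in at least 1 table are named, except 1 that is not reported here, as are some of up to 6 called genes per list; Paip2, Slc22a13b-ps, Xist and Ddx3y were named after their values were seen. The members and lists were chosen with earlier results of these data known. Libraries within a group are biological replicates by their labels. The 14 chromatin and input libraries were not analysed here.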

Additional observations from a re-analysis of the deposited data

How the results depend on the processing

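The counts and medians were recomputed with q at or below 0.01 or 0.1, with unadjusted p, with a filter at 1 RPKM, with at least a 2-fold difference, with centring on the median gene, without shared locus entries and with pseudocounts of 0.1 and 1. In Eed-null villus, the 5 carriers called higher became 3 with at least a 2-fold difference, beside 6.60% of all tested genes. The 4 called lower became 2 with that filter, beside 1.72% of all tested genes. With unadjusted p they became 8, beside 8.82% of all tested genes. The 2-fold filter ended calls, among them those of Slc19a2, Slc28a2 and Slco2b1, and q at or below 0.01 ended that of Slc22a13. With q at or below 0.1, Slc46a1, Slc23a2 and Slc52a3 were also called. The 18 carriers higher and 7 lower in wild-type villus than in ISC stayed within 1.5 times under each of these settings. The median log2 ratio of tested carriers in Eed-null villus, 0.18, became 0.16 with a pseudocount of 1, 0.18 with a pseudocount of 0.1, 0.28 after centring and 0.10 with the 1 RPKM filter. That in wild-type villus against ISC, 1.39, became 1.17, 1.37, 1.36 and 2.03 under the same settings. The median gene at 1 RPKM or more in both groups had a log2 ratio of -0.10 in the Eed-null comparison and 0.02 in the other. Only centring could change a direction among these settings. Its shift was smaller in size than the log2 ratio of each called carrier, so their directions were not put to a test. The uncalled Slc22a18 had a log2 ratio of -0.07 in Eed-null villus, and 0.03 after centring. No paired analysis was possible because the tables hold 1 value per group, which also prevented leaving out a replicate. With depth unknown, how precisely carriers under 1 RPKM were measured cannot be given.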

Other observations

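Multiplying the Eed-null values by 1.16193 puts all 3 groups on the scale of the table with ISC; these are levels with no test. Slc19a2 then stood at 14.8 RPKM in Eed-null villus, 7.90 RPKM in wild-type villus and 17.3 RPKM in ISC. Slc22a17 stood at 0.837 RPKM in Eed-null villus, 0.0587 RPKM in wild-type villus and 0.680 RPKM in ISC. Slc22a15 stood at 2.28 RPKM in Eed-null villus, above both wild-type villus, at 0.865 RPKM, and ISC, at 0.894 RPKM. Slco2b1 stood at 4.07 RPKM in Eed-null villus, below both wild-type villus, at 7.62 RPKM, and ISC, at 8.84 RPKM. The ascorbate carrier gene Slc23a1 stood at 12.9 RPKM in Eed-null villus, 30.9 RPKM in wild-type villus and 0.383 RPKM in ISC.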
